A study of Arabidopsis thaliana with 54 samples.

Results

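Control hypocotyls were compared with control cotyledons of Arabidopsis thaliana seedlings, accession Col-0, after 25.5 h in the treatment chambers. The comparison rests on 6 of the 54 Affymetrix Gene 1.1 ST arrays of the series, 3 labelled hypocotyl and 3 labelled cotyledon, chosen by those labels alone. Seedlings had been kept in short days of 9 h light and 15 h dark at 21 °C and were 1 day old when they entered sealed glass desiccators. Control light held 140 µmol per square metre and second of photosynthetically active radiation, 29 of blue light, and a red to far-red ratio of 2.1. These controls received neither ethylene nor shade, and the harvest at 25.5 h, like that at 1.5 h, fell in the light, whereas that at 13.5 h fell in the dark. Roots were discarded, and the tissue called cotyledon also contains the shoot apical meristem, so every difference below is one between a stem-like organ and a leaf-bearing shoot tip. The labels describe 3 independent experiments, and each sample pooled 2 technical replicates of 25 seedlings. For comparison, the same organs were taken from control seedlings at 1.5 and 13.5 h, from seedlings under ethylene at 1 µl per litre for 25.5 h in control light, and from seedlings shaded for 25.5 h at 40 µmol of photosynthetically active radiation, 3 of blue light and a red to far-red ratio of 0.45. Each of those groups also held 3 samples.

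The hypocotyl is the embryonic stem of the seedling. In light it lengthens mainly by cell expansion, which is set by auxin, gibberellin, ethylene and light signals and carried out by wall-loosening enzymes, while its vascular strand begins to lignify. Cotyledons are the embryonic leaves; after germination they green, build chloroplasts, form stomata and spend the stored oil, and the meristem between them begins the first true leaves.

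The arrays give log2 values after RMA (robust multi-array average), a scale on which 1 unit is a 2-fold difference; a positive difference means higher in hypocotyl. Of the 16746 array features that carry exactly 1 gene, 5082 (30.3%) differed between the organs at an adjusted p below 0.05 in limma's moderated test with Benjamini-Hochberg adjustment. Of these, 2668 (15.9%) were higher in hypocotyl and 2414 (14.4%) were lower. The direction of this split depends on the scale: when every array was centred on 12 reference genes, 2063 features were higher and 3516 lower, and the median of all features moved to -0.19 from -0.065 on the log2 scale as deposited. The reference genes were not all alike in the organs: before centring, 2 of the 12 were called higher in hypocotyl and 2 lower (median 0.12). Differences of at least 2-fold were found for 1757 called features (10.5%), and of at least 8-fold for 105 (0.627%), 64 of them higher in hypocotyl (0.382%) and 41 lower (0.245%). In 7049 features (42.1%) the 3 hypocotyl and 3 cotyledon arrays did not overlap, and 6438 (38.4%) had an unadjusted p below 0.05. Because whole organs were measured, fewer cells of a type and less RNA per cell cannot be told apart in any of these values. Nothing beyond the 3 experiments says how far the arrays are independent, so the p-values measure the spread between arrays within groups. That spread was pooled over all 54 arrays of the series, and the standard errors (SE) given below use it too. With only the 6 control arrays of this comparison fitted, 4403 features were called in place of 5082.

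**Figure D1:**
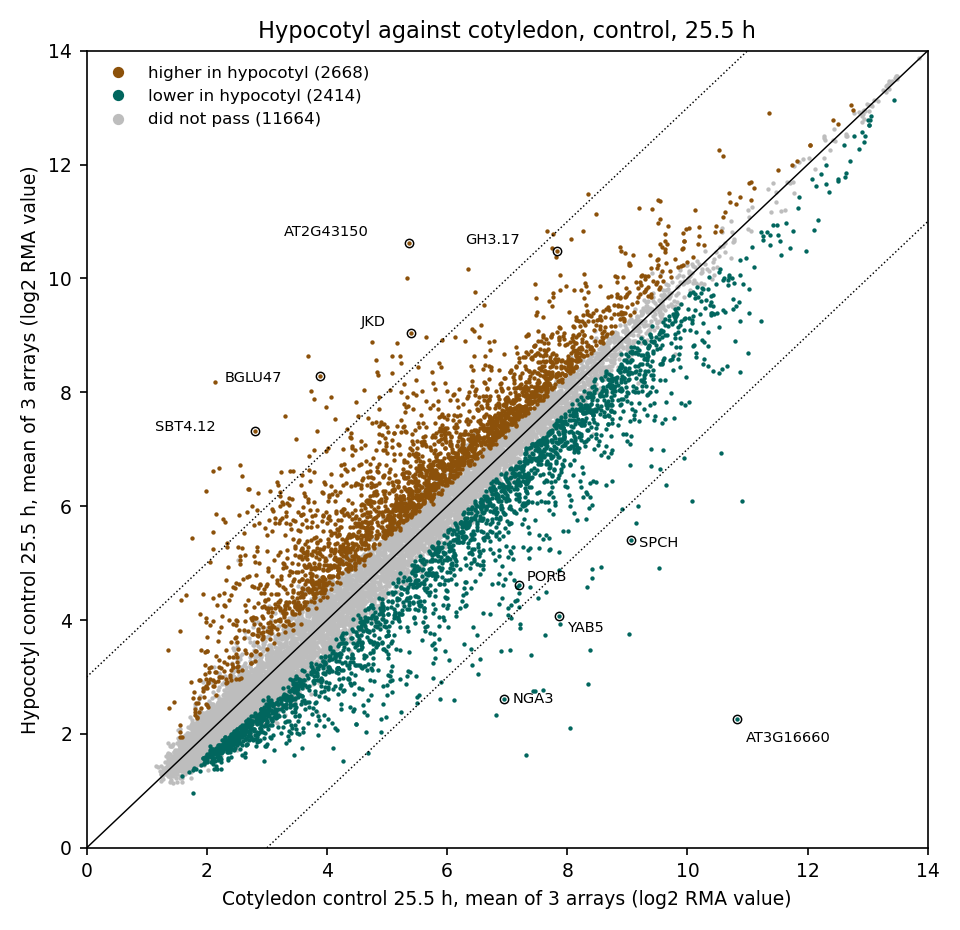
Mean log2 RMA value of each feature with 1 gene in the 3 control hypocotyl arrays (vertical axis) against the 3 control cotyledon arrays (horizontal axis) at 25.5 h. The 2668 features called higher in hypocotyl and the 2414 called lower are coloured, and the dotted lines mark an 8-fold difference.

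The labels of the organs were checked against genes that mark them. The 100 genes with the largest cotyledon excess in the ethylene and shade arrays at 25.5 h, which the comparison did not use, averaged 5.00, 4.83 and 5.22 in the control hypocotyl arrays, against 7.66, 7.66 and 7.72 in the control cotyledon arrays. The matching 100 hypocotyl genes averaged 6.46, 6.63 and 6.46 in hypocotyl, against 4.04, 4.05 and 3.97 in cotyledon. Arrays of 1 organ correlated at 0.987 to 0.99 over all features and arrays of different organs at 0.945 to 0.957, so the 6 arrays separate by label. Hypocotyl replicate 3 read higher in genes of the cotyledon type than the other hypocotyl arrays: among the 41 genes at least 8-fold lower in hypocotyl it was the highest hypocotyl array for 28, and their means were 3.91, 3.73 and 4.23 in hypocotyl replicates 1, 2 and 3. Cotyledon replicate 3 was likewise the highest cotyledon array for 24 of these 41 genes. Their means were 7.99, 7.93 and 8.05 in cotyledon replicates 1, 2 and 3. The 41 genes were picked from these same arrays. The part of hypocotyl replicate 3 in the results was not tested beyond leaving it out, which gave 4723 calls. Of the markers of other cell types, 3 of 17 genes of the shoot apical meristem and leaf primordia were measured (CLV3, YAB3 and YAB5), none of 8 vascular and none of 7 endodermal genes, and 3 of 11 root hair and root cap genes. The root genes EXPA7, EXPA18 and PYK10 together averaged 5.90 to 6.14 in hypocotyl and 5.95 to 6.38 in cotyledon, and none of them passed the test.

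Genes of the stomatal lineage were lower in hypocotyl without exception among those measured. All 4 were called, with a median difference of -2.66 on the log2 scale beside -0.065 for all features, and in each the hypocotyl arrays lay below the cotyledon arrays; the same 4 calls were made without hypocotyl replicate 3. Stomata arise through divisions that are started by SPEECHLESS, passed on by MUTE and closed by FAMA, 3 basic helix-loop-helix factors that act in that order.

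SPEECHLESS (SPCH, AT5G53210) read 5.10, 4.84 and 6.26 in hypocotyl, against 9.20, 8.93 and 9.07 in cotyledon. The difference was -3.67 ± 0.40 (SE, n = 3 per organ, adjusted p = 6.9e-10), the widest of the 4. MUTE (AT3G06120) read 3.9, 3.24 and 3.62 in hypocotyl, against 5.57, 5.63 and 6.15 in cotyledon, a difference of -2.19 ± 0.25 (adjusted p = 3.4e-09). FAMA (listed as FMA, AT3G24140), which ends the guard mother cell's divisions, read 4.07, 4.01 and 4.90 in hypocotyl and 7.08, 7.2 and 7.10 in cotyledon, a difference of -2.80 ± 0.19 (adjusted p = 2.6e-15). STOMAGEN (AT4G12970), the peptide from mesophyll that promotes stomata, read 4.21, 4.45 and 4.49 in hypocotyl and 6.91, 6.79 and 7.03 in cotyledon, a difference of -2.53 ± 0.22 (adjusted p = 2e-12). For SPCH and FAMA, hypocotyl replicate 3 was the highest of its group by more than 0.8 on the log2 scale, yet still below every cotyledon array.

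Factors that shape the blade of leaves were lower in hypocotyl as well. Of 12 measured lamina growth factors, 9 were lower in hypocotyl and none higher, with a median of -1.81; this list was put together after values had been seen, and 7 were lower without cotyledon replicate 3. In the wider list of shoot meristem and leaf polarity genes, 1 of 11 was higher and 5 were lower (median -0.32). NGATHA factors, B3-domain proteins that restrain growth at the leaf margin, were all 4 lower. NGA3 (AT1G01030) read 2.39, 2.52 and 2.92 in hypocotyl, against 6.95, 7.06 and 6.83 in cotyledon, and differed by -4.33 ± 0.21 (adjusted p = 2.6e-19). Its hypocotyl values lie close to 2.373, the mean level below which the dimmest features of the array were defined, and no detection value is given, so for NGA3 and the other genes near that level in 1 organ the difference may understate the true one. NGA1 differed by -2.95 ± 0.27 and NGA2 by -2.85 ± 0.26, whereas NGA4, dim in both organs, differed by only -0.68 ± 0.21 (adjusted p = 0.0127) and lost its call without cotyledon replicate 3 (-0.51, adjusted p = 0.102).

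YABBY factors mark the lower face of young leaves and promote growth of the blade. YAB5 (AT2G26580) read 4.15, 3.69 and 4.40 in hypocotyl, against 7.84, 7.86 and 7.88 in cotyledon (-3.79 ± 0.29, adjusted p = 9e-14). YAB3 (AT4G00180) read 5.66, 5.67 and 6.70 in hypocotyl and 9.26, 9.06 and 9.21 in cotyledon (-3.17 ± 0.51, adjusted p = 3.4e-06). YAB2 (AT1G08465) read 5.70, 4.37 and 5.69 in hypocotyl and 7.74, 7.73 and 7.66 in cotyledon (-2.46 ± 0.44, adjusted p = 2.1e-05). The cotyledon arrays of these YABBY genes lay within 0.2 of each other, and the hypocotyl arrays were spread more widely. PHABULOSA's close relative PHAVOLUTA (PHV), which specifies the upper leaf face, was lower by a smaller amount, -1.16 ± 0.19. JAGGED (JAG), a zinc finger factor of blade growth, passed the test narrowly (-1.06 ± 0.42, adjusted p = 0.0478), and its arrays overlapped, at 3.53, 2.76 and 4.89 in hypocotyl against 4.85, 4.66 and 4.86 in cotyledon. That call was lost in the fit of the 6 arrays alone (adjusted p = 0.122), over all features of the array (0.0598), and when any single array other than hypocotyl replicate 3 was left out, with -0.58 without hypocotyl replicate 2 and -1.64 without hypocotyl replicate 3. CLAVATA3 (CLV3), the signal peptide of the meristem's stem cells, was dim in both organs, at 1.93, 1.79 and 2.39 in hypocotyl and 1.94, 2.64 and 2.01 in cotyledon, and did not pass (-0.16 ± 0.17, adjusted p = 0.551).

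The epidermal patterning genes differed in opposite directions. TRIPTYCHON (TRY, AT5G53200), a small MYB protein that represses trichomes, read 5.70, 5.55 and 6.59 in hypocotyl and 8.97, 8.83 and 8.91 in cotyledon (-2.96 ± 0.23, adjusted p = 1e-13). The zinc finger gene GIS, an activator of trichomes, was lower by -1.39 ± 0.15. SIAMESE (SIM, AT5G04470), a cyclin-dependent kinase inhibitor that turns dividing cells to endoreduplication, was higher in hypocotyl, at 6.90, 7.34 and 6.84 against 3.79, 3.9 and 4.37 in cotyledon, a difference of 3.01 ± 0.20 (adjusted p = 9.3e-16). Of 11 cell cycle and histone genes, 5 were lower in hypocotyl and none higher (median -0.57). Aurora kinase AUR1, which acts at the mitotic spindle, differed by -1.77 ± 0.24, and the histone H2B genes HTB2 and HTB4 by -1.20 ± 0.32 and -0.87 ± 0.18. AUR1 read 5.53, 5.70 and 6.57 in hypocotyl, against 7.49, 7.83 and 7.78 in cotyledon, with hypocotyl replicate 3 again the highest of its group.

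Chloroplast genes were lower in hypocotyl by amounts that depended on the step. Among 7 measured genes of chlorophyll synthesis, 5 were lower and none higher (median -1.09). PORB (AT4G27440), a protochlorophyllide oxidoreductase that needs light for its reaction, read 4.55, 4.33 and 4.96 in hypocotyl, against 7.4, 7.19 and 7.0 in cotyledon (-2.58 ± 0.28, adjusted p = 1e-09). The uroporphyrinogen decarboxylases HEME1 and HEME2 differed by -1.93 ± 0.12 and -1.57 ± 0.14, and GSA1, which makes the precursor 5-aminolevulinate, by -1.09 ± 0.13. CHLM, the magnesium protoporphyrin methyltransferase, differed least of the 5, by -0.61 ± 0.11.

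Machinery that builds and runs the plastid genome's products was also lower. Of 29 nuclear genes for plastid biogenesis, 19 were lower and 1 higher (median -0.83). The RNA editing factors CRR21 and OTP86 differed by -1.75 ± 0.18 and -1.68 ± 0.28, the NDH complex subunit NdhL by -1.63 ± 0.21, and the chaperonin subunit Cpn60beta2 by -1.55 ± 0.23. Of 63 features for genes encoded in the plastid itself, 23 were lower and none higher, with a median of -0.12, close to that of all features; under quantile normalization 16 were lower and 1 higher, and with only the 6 arrays fitted 13 were lower. The plastid's own RNA polymerase genes lay at the low end: rpoC2 differed by -1.15 ± 0.12, rpoB by -1.14 ± 0.15 and rpoC1 by -0.92 ± 0.14, and the ribosomal protein gene rps16 by -1.21 ± 0.14. rpoB read 10.38, 10.10 and 10.75 in hypocotyl and 11.48, 11.61 and 11.55 in cotyledon.

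The 12 genes measured for the photosynthetic apparatus itself had small median differences, though a larger share of them was lower than of all features (14.4%). Of 12 genes for light harvesting, the photosystems and the Calvin cycle, 5 were lower and none higher, with medians of -0.22, -0.34 and -0.16 in the 3 lists, and under quantile normalization none of the light harvesting and photosystem genes was called. Lower photosystem genes numbered 3, and 1 without cotyledon replicate 1. Sedoheptulose bisphosphatase (SBPASE), an enzyme of the Calvin cycle, read 10.64, 10.81 and 10.81 in hypocotyl and 11.50, 11.55 and 11.49 in cotyledon (-0.76 ± 0.10, adjusted p = 1.2e-07). Rubisco activase (RCA) was bright in both organs and did not pass (-0.16 ± 0.09, adjusted p = 0.177).

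Genes that handle lignin precursors were called in 1 direction, higher in hypocotyl. Lignin is made from monolignols, which are stored as glucosides, freed by beta-glucosidases and joined in the wall by peroxidases. In a list of 11 such genes, put together after values had been seen, 8 were higher in hypocotyl and none lower, with a median difference of 2.26. The same 8 calls stood without hypocotyl replicate 3. In the 2 shorter lists chosen earlier, of phenylpropanoid synthesis and of the secondary wall and xylem, 1 of 3 genes each was higher and none lower (medians -0.02 and 0.18).

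BGLU47 (AT4G21760), a beta-glucosidase of the family branch that acts on monolignol glucosides, read 8.65, 8.46 and 7.75 in hypocotyl, against 3.65, 3.93 and 4.08 in cotyledon (4.40 ± 0.31, adjusted p = 5.3e-15). BGLU46 (AT1G61820) read 9.32, 9.81 and 9.50 in hypocotyl and 6.59, 6.63 and 6.66 in cotyledon (2.92 ± 0.26, adjusted p = 3.5e-12), and BGLU45 (AT1G61810) read 4.29, 5.06 and 3.97 in hypocotyl and 1.96, 1.48 and 1.54 in cotyledon (2.78 ± 0.41, adjusted p = 6e-07). None of the 3 genes had a hypocotyl array near the cotyledon range. UGT72E1, which glucosylates lignin aldehydes, differed by 2.26 ± 0.33, with 6.99, 7.50 and 6.89 in hypocotyl against 4.88, 5.27 and 4.44 in cotyledon. CCR2, a cinnamoyl-CoA reductase, differed by 2.49 ± 0.32, at 5.51, 6.03 and 5.17 in hypocotyl against 3.24, 3.14 and 2.85 in cotyledon.

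Class III peroxidases listed by name, which oxidize wall phenolics, were higher where they were called. Of 8 named peroxidases, 4 were higher and none lower (median 1.13), beside 15.9% and 14.4% of all features. This list was put together after values had been seen. When centred on reference genes, and without cotyledon replicate 3, 1 of them was lower. PRX72 (AT5G66390) read 8.09, 7.81 and 7.58 in hypocotyl and 4.09, 4.87 and 4.52 in cotyledon (3.33 ± 0.42, adjusted p = 2.7e-08). PRX71 (AT5G64120) differed by 3.44 ± 0.62, Prx37 by 3.1 ± 0.54 and PRXR1 by 2.04 ± 0.16. JACKDAW (JKD, AT5G03150), a zinc finger factor known in the root for its part in forming the ground tissue around the endodermis, read 9.12, 9.16 and 8.87 in hypocotyl, against 5.24, 5.46 and 5.49 in cotyledon (3.65 ± 0.17, adjusted p = 1.2e-19).

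Genes of the growing wall moved both ways. Expansins loosen the wall without cutting it, and xyloglucan endotransglucosylase/hydrolases (XTHs) cut and rejoin its xyloglucan. Of 34 such genes, 7 were higher and 9 lower in hypocotyl (median -0.18), and under quantile normalization 8 were higher and 8 lower, so no direction of the family as a whole can be given. EXPB3 (AT4G28250) read 11.12, 10.82 and 10.55 in hypocotyl and 8.32, 8.43 and 8.04 in cotyledon (2.57 ± 0.28, adjusted p = 8e-10). EXPA9 differed by 1.95 ± 0.27 and XTH32 by 1.80 ± 0.16. XTH16 (AT3G23730) read 4.59, 3.69 and 4.90 in hypocotyl, against 7.32, 7.43 and 7.82 in cotyledon (-3.13 ± 0.31, adjusted p = 9.4e-11). XTH33 was lower by -2.57 ± 0.21, and the expansin-like genes EXLA1 and EXLA2 by -2.80 ± 0.33 and -2.80 ± 0.35.

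Microtubule genes and genes of wall acetylation were more often called higher than lower in hypocotyl. Of 11 tubulin and microtubule genes, 8 were higher and 1 lower (median 0.87); without hypocotyl replicate 3, 6 were higher and 1 lower. The beta-tubulin TUB6 read 8.77, 8.89 and 9.28 in hypocotyl and 7.85, 7.80 and 7.95 in cotyledon (1.11 ± 0.12), and TUB1 read 5.45, 4.35 and 5.86 in hypocotyl and 3.86, 3.78 and 3.75 in cotyledon (1.42 ± 0.30). TON1B, which helps to place microtubule arrays, differed by 0.90 ± 0.15. Members of the TRICHOME BIREFRINGENCE-LIKE family, many of which acetylate wall polysaccharides, were higher in 9 and lower in 2 of 24 (median 0.02). TBL28 differed by 2.39 ± 0.17, while TBL26 was the exception in size, at 5.46, 5.01 and 4.36 in hypocotyl against 8.81, 8.62 and 8.24 in cotyledon (-3.61 ± 0.22, adjusted p = 6.1e-17). The IQD list, like the tubulin and TRICHOME BIREFRINGENCE-LIKE lists, was put together after values had been seen. Among IQD proteins, which bind calmodulin and microtubules, 5 of 17 were higher and 4 lower, beside 15.9% and 14.4% of all features. Within that family iqd15 differed by 2.33 ± 0.34 and IQD19 by 1.44 ± 0.19, against -3.73 ± 0.25 for iqd21 and -2.54 ± 0.18 for IQD24.

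**Figure D2:**
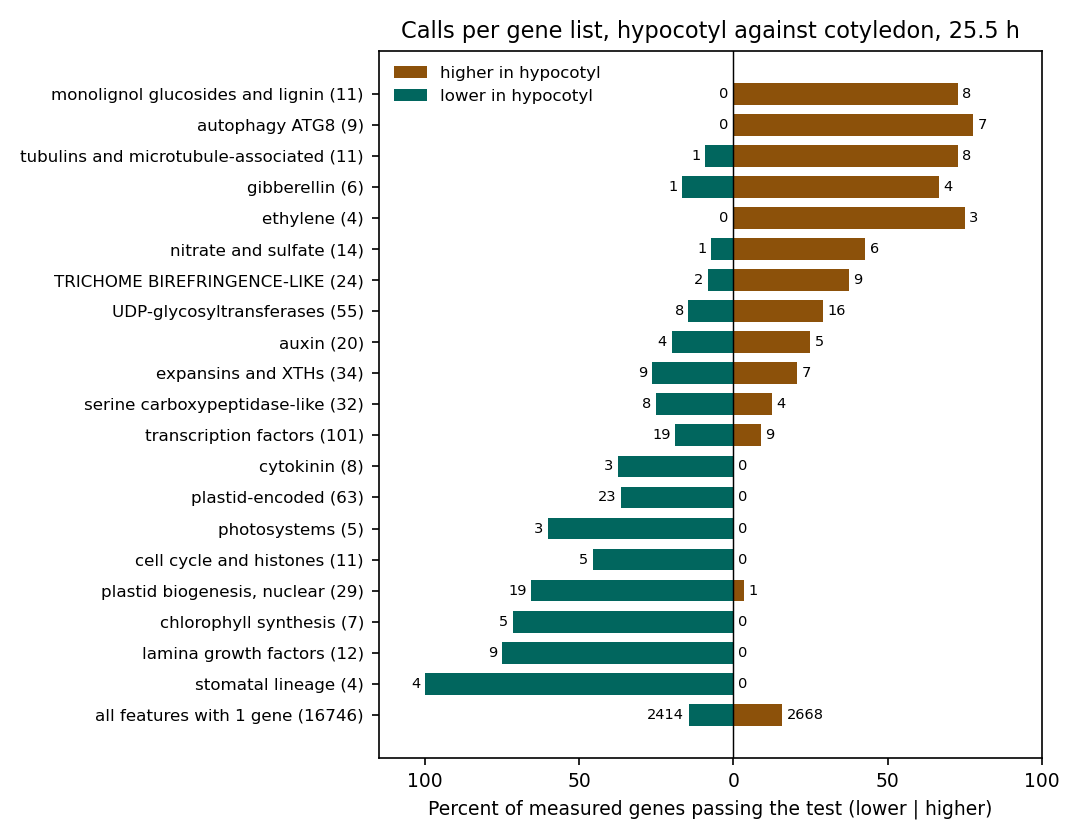
Percent of each gene list that passed the test at 25.5 h, with members higher in hypocotyl drawn to the right of 0 and members lower in hypocotyl to the left; the row for all features stands at 15.9% and 14.4%. Stomatal genes were all lower, and 8 of 11 genes were higher in the lignin list, which was put together after values had been seen. So were the autophagy, tubulin, TRICHOME BIREFRINGENCE-LIKE, UDP-glycosyltransferase, carboxypeptidase, plastid and lamina lists. The 2 shorter lists chosen earlier, of phenylpropanoids and of the secondary wall, are not drawn, and 1 of 3 genes was higher in each.

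Auxin genes were called in both directions. Of 20 measured, 5 were higher and 4 lower in hypocotyl (median 0.01), beside 15.9% and 14.4% of all features. Without hypocotyl replicate 2, 4 were higher and 3 lower. All called enzymes of the GH3 group except GH3.9 were higher; these proteins conjugate auxin and related acids to amino acids, and several are induced by auxin. GH3.17 (AT1G28130) read 10.53, 10.55 and 10.39 in hypocotyl and 7.31, 7.80 and 8.38 in cotyledon (2.66 ± 0.19, adjusted p = 6.2e-15). WES1 (GH3.5) differed by 1.92 ± 0.23, GH3.3 by 1.59 ± 0.54 and GH3.1 by 0.95 ± 0.24, while GH3.9 was lower by -1.19 ± 0.23. IAA29 (AT4G32280), a repressor of the auxin response, read 5.92, 6.33 and 5.75 in hypocotyl, against 3.86, 2.85 and 2.93 in cotyledon (2.78 ± 0.26, adjusted p = 1.8e-11). Its relatives IAA18 and IAA34 went the other way, by -1.69 ± 0.16 and -0.79 ± 0.27. The calls of GH3.3 and IAA34 were lost without hypocotyl replicate 2 (1.32 and -0.75), without cotyledon replicate 2 (1.57 and -0.79) and without cotyledon replicate 3 (1.57 and -0.76). YUC2, an enzyme of auxin synthesis, was lower in hypocotyl, at 2.98, 2.65 and 2.90 against 4.04, 4.14 and 4.20 in cotyledon (-1.29 ± 0.21, adjusted p = 5.3e-06).

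Gibberellin reception was higher in hypocotyl for the receptors GID1A and GID1C but not for GID1B. Of 6 genes, 4 were higher and 1 lower (median 0.65). GID1A (AT3G05120) read 7.18, 7.24 and 7.35 in hypocotyl and 6.0, 5.6 and 6.08 in cotyledon (1.36 ± 0.17, adjusted p = 1.6e-08). GID1C differed by 1.09 ± 0.20, and GID1B, at 5.82, 5.67 and 6.10 against 5.90, 5.81 and 5.41 in cotyledon, overlapped (0.15 ± 0.27, adjusted p = 0.718). SLY1, the F-box protein that marks DELLA repressors for breakdown, was higher by 0.95 ± 0.15, and its paralogue SLY2 lower by -0.62 ± 0.20 (adjusted p = 0.0169). That lower call was lost under quantile normalization (-0.48, adjusted p = 0.0675), without hypocotyl replicate 2 (-0.51), without cotyledon replicate 1 (-0.59) and without cotyledon replicate 3 (-0.57).

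In the ethylene list, 3 of 4 genes were higher in hypocotyl and none lower (median 0.78). EIN3 (AT3G20770), the main transcription factor of the pathway, read 9.17, 9.38 and 9.31 in hypocotyl and 8.58, 8.44 and 8.59 in cotyledon (0.75 ± 0.12, adjusted p = 2.1e-06). RTE1, which supports the receptor ETR1, differed by 0.81 ± 0.18, and ARL, a gene of organ growth by cell expansion, by 1.91 ± 0.50. Of 8 cytokinin genes 3 were called, all lower in hypocotyl (median -0.34). RR24, a response regulator (-0.60), lost its call with only the 6 arrays fitted, under quantile normalization (-0.47), and without hypocotyl replicate 2 (-0.50), cotyledon replicate 1 (-0.63) or cotyledon replicate 2 (-0.40). RR16 (AT2G40670) read 1.47, 2.39 and 2.24 in hypocotyl and 4.54, 4.51 and 4.90 in cotyledon (-2.62 ± 0.37, adjusted p = 2.2e-07), and ARR15 differed by -1.73 ± 0.41. The clock gene GIGANTEA (GI) was higher by 0.84 ± 0.15 and CCL by 1.39 ± 0.30, and these were the only 2 clock genes measured.

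Some genes for the use of stored oil were higher in hypocotyl. In the list of seed reserves and lipid mobilization 3 of 9 were higher and none lower, with a median of 0.10. All 4 measured genes of the glyoxylate cycle, beta-oxidation and gluconeogenesis were called, with a median of 1.39; the list was put together after values had been seen. ICL (AT3G21720), the isocitrate lyase of the glyoxylate cycle, read 9.95, 9.84 and 9.94 in hypocotyl and 7.45, 6.95 and 7.99 in cotyledon (2.45 ± 0.38, adjusted p = 1.6e-06). PPDK, which feeds carbon into sugar synthesis, read 7.90, 8.01 and 7.65 in hypocotyl and 6.2, 5.47 and 5.88 in cotyledon (2.00 ± 0.26, adjusted p = 3.9e-08). SDP1, the lipase that opens the oil body's triacylglycerol, and AIM1, a beta-oxidation enzyme, differed by 0.79 ± 0.13 and 0.51 ± 0.10.

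Autophagy genes of the ATG8 family, whose proteins are joined to the autophagosome membrane, were higher in 7 of 9 and lower in none (median 0.99). ATG8G read 5.36, 6.08 and 5.28 in hypocotyl and 4.15, 3.51 and 4.11 in cotyledon (1.65 ± 0.24, adjusted p = 4.3e-07), and ATG8B, ATG8H and APG8A differed by 1.52 ± 0.35, 1.46 ± 0.23 and 1.28 ± 0.25.

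Transport and conjugation families held single members with wide differences. SWEET proteins carry sugars across membranes, and 3 of 16 were higher and 3 lower, beside 15.9% and 14.4% of all features. SAG29 (SWEET15, AT5G13170) read 8.18, 8.73 and 8.12 in hypocotyl and 5.53, 4.85 and 4.11 in cotyledon (3.51 ± 0.38, adjusted p = 6.2e-10). The fructose carrier SWEET17 differed by 2.97 ± 0.33 and SWEET1 by -1.97 ± 0.27. Of 14 nitrate and sulfate genes 6 were higher and 1 lower; NPF6.2 (AT2G26690) read 12.15, 12.25 and 12.07 in hypocotyl and 10.60, 10.61 and 10.57 in cotyledon (1.56 ± 0.12, adjusted p = 2.2e-13). UDP-glycosyltransferases, which attach sugars to small molecules, were higher in 16 and lower in 8 of 55, beside 15.9% and 14.4% of all features. Their list and the SWEET list were put together after values had been seen. UGT76B1, known to glucosylate isoleucic and salicylic acid, differed by 3.70 ± 0.35, and UGT84A3 and UGT87A2 by -2.84 ± 0.22 and -2.69 ± 0.27. The jacalin lectins, proteins that bind sugars, were higher in 5 of 13 and lower in none, beside the same shares of all features. Of these 13, 8 are listed by locus only. JAL31 differed by 2.61 ± 0.16 and JAL22 by 2.18 ± 0.20, while the median of the list was -0.16.

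Peptide and protease genes included RALFL32, a rapid alkalinization factor, which read 7.14, 6.77 and 7.06 in hypocotyl and 4.82, 4.43 and 4.15 in cotyledon (2.52 ± 0.19, adjusted p = 3.9e-14). In the list of signalling peptides 5 of 37 were higher and 3 lower (median -0.01), beside 15.9% and 14.4% of all features. The subtilase SBT4.12 (AT5G59090), a serine protease, read 7.53, 7.18 and 7.27 in hypocotyl and 2.95, 2.83 and 2.62 in cotyledon (4.53 ± 0.37, adjusted p = 4.5e-13). Of 10 subtilases 2 were higher and 1 lower (median 0.19), beside 15.9% and 14.4% of all features. Only 1 was higher without hypocotyl replicate 2, hypocotyl replicate 3, cotyledon replicate 1 or cotyledon replicate 2. The serine carboxypeptidase-like gene scpl28 differed by 4.28 ± 0.47, at 7.6, 8.13 and 7.01 in hypocotyl against 3.52, 3.28 and 3.11 in cotyledon. In its family of 32 genes 4 were higher and 8 lower (median -0.20), beside the same shares of all features. The lists of signalling peptides, subtilases and carboxypeptidases were put together after values had been seen.

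Of 101 transcription factors in the list used here, 9 were higher and 19 lower, beside 15.9% and 14.4% of all features. The number higher was 4 without hypocotyl replicate 2 and 5 without hypocotyl replicate 1, with only the 6 arrays fitted, and when centred on reference genes. LBD16 (AT2G42430), a factor of lateral root founder cells, read 5.68, 6.24 and 5.46 in hypocotyl and 2.72, 2.93 and 3.77 in cotyledon (2.65 ± 0.40, adjusted p = 8.9e-07). BHLH101, of the iron deficiency response, differed by 1.75 ± 0.30. On the lower side, beside the YABBY genes given above, WRKY29 differed by -2.47 ± 0.45, BZIP61 by -2.39 ± 0.21 and BZIP34 by -2.33 ± 0.25. BZIP61 (AT3G58120) read 6.97, 7.10 and 6.94 in hypocotyl, against 9.37, 9.45 and 9.36 in cotyledon.

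Several of the widest differences belong to loci that carry no gene name here. AT3G16660 read 2.37, 2.22 and 2.2 in hypocotyl and 10.90, 10.81 and 10.80 in cotyledon, a difference of -8.57 ± 0.54 (adjusted p = 3.7e-16), the largest fitted one among the called features. Its hypocotyl values are at or below that level of the dimmest features, so the fitted size is limited by the low end of the scale. AT3G16670 differed by -5.67 ± 0.32, AT1G66100 by -5.94 ± 0.49 and AT3G22060 by -5.47 ± 0.49. The remaining 8 of the 12 most negative lay between -5.26 and -4.48. On the positive side AT3G54580 read 7.72, 8.57 and 8.27 in hypocotyl and 2.44, 2.08 and 1.87 in cotyledon (6.06 ± 1.00, adjusted p = 4.9e-06). AT2G43150 differed by 5.26 ± 0.59, AT5G06800 by 4.94 ± 0.36 and AT3G32980 by 4.66 ± 0.36, and the other 8 of the 12 lay between 4.17 and 4.53.

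The differences were next set beside those of the other arrays, none of which is shared with the 6 compared here. Of the 5082 calls, 3271 (64.4%) were called in the same direction in control organs at 1.5 h, where 7124 features (42.5%) were called, 27.1% higher and 15.4% lower, and 221 were called in the opposite direction. At 13.5 h, in the dark, 2913 (57.3%) were called in the same direction and 79 in the opposite, of 5089 calls (30.4%, with 15.7% higher and 14.7% lower). Under ethylene at 25.5 h 3009 (59.2%) were called alike and 235 opposite, of 5760 (34.4%, with 18.3% higher and 16.1% lower). Under shade 2812 (55.3%) were called alike and 68 opposite, of 4500 (26.9%, with 14.2% higher and 12.6% lower). Seen from the other side, the shared calls made up 45.9% of those at 1.5 h, 57.2% at 13.5 h, 52.2% under ethylene and 62.5% under shade. Over all 4 settings 1772 of the 5082 (34.9%) were called in the same direction every time. Of the 105 genes at least 8-fold different, 99, 93, 97 and 95 were called in the same direction at 1.5 h, at 13.5 h, under ethylene and under shade, and none in the opposite.

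SPCH, FAMA, STOMAGEN and MUTE were lower in hypocotyl in all of these comparisons, with differences of -3.30, -3.52, -2.08 and -2.22 at 1.5 h and of -2.79, -2.45, -2.26 and -2.28 at 13.5 h. NGA3 differed by -4.14 at 1.5 h, -2.86 at 13.5 h, -5.25 under ethylene and -4.41 under shade, and JKD by 3.64, 3.60, 3.94 and 3.43 in the same order. AT3G16660 differed by -7.10, -8.34, -8.49 and -8.23. BGLU46 kept to between 2.03 and 3.07. Each of these genes was called in the same direction at every time and treatment set beside it.

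Tests of the change in the organ difference over time used the same 6 arrays and the control arrays of the earlier harvest. Against 1.5 h, a day earlier at the same hour, the difference changed for 3092 features (18.5%), moving up towards hypocotyl for 970 (5.79%) and down for 2122 (12.7%). Centred on reference genes, 1183 moved up and 1608 down. For 2214 of them the difference was narrower at 25.5 h than at 1.5 h. In 2137 the hypocotyl mean moved more than the cotyledon mean. The mean of 2 jacalin lectin genes was somewhat raised in cotyledon control replicate 3 at 25.5 h, 1 of the 6 arrays compared here (3.67, beside 2.47 and 1.93). It was 4.43 in hypocotyl ethylene replicate 3 at 1.5 h and 4.34 in cotyledon shade replicate 3 at 13.5 h. All of these lay below a cut of 5 and were kept. Hypocotyl control arrays 1 and 3 at 1.5 h, and arrays 1 and 3 at 13.5 h, stood further apart in these genes, averaging 7.67, 8.18, 7.96 and 7.11 where the corresponding second replicates averaged 2.04 and 1.53. When these arrays and an ethylene array like them (5.69) were left out, 1889 changes were called against 1.5 h, 1717 of them among the 3092 and in the same direction; this leaves 1 hypocotyl array at each earlier harvest, which is taken to vary like the other groups, and their part in the change was not tested otherwise.

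Genes of root hairs were among those with a narrower difference. All 6 root hair and root cap genes were called higher in hypocotyl at 1.5 h (median 3.43), where 27.1% of all features were, 4 at 13.5 h (median 1.18, beside 15.7% of all features) and none at 25.5 h (median -0.01). Roots had been discarded, and no value here tells a hypocotyl's own hairs at its base from root tissue left on it. EXPA7 (AT1G12560), a root hair expansin, read 7.23, 6.91 and 5.39 in hypocotyl and 3.39, 3.07 and 3.08 in cotyledon at 1.5 h. At 25.5 h it read 3.07, 2.80 and 3.20 in hypocotyl and 3.31, 3.43 and 2.94 in cotyledon, a change of -3.54 ± 0.56 (adjusted p = 1.3e-05). AT4G26010 showed the same course, at 9.70, 9.24 and 7.69 in hypocotyl at 1.5 h, 5.11, 4.73 and 6.31 at 13.5 h and 2.65, 3.01 and 3.03 at 25.5 h, against 2.19 to 2.95 in every cotyledon array (change -5.83 ± 0.95, adjusted p = 2.1e-05). PYK10, a root and hypocotyl beta-glucosidase of the ER body, kept between 12.37 and 13.08 in both organs at all 3 times and its difference did not pass the test of change (-0.03 ± 0.10, adjusted p = 0.902).

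Other differences were wider or nearer to hypocotyl at 25.5 h. AT3G16530 read 2.42, 2.43 and 2.50 in hypocotyl and 2.10, 1.91 and 2.27 in cotyledon at 1.5 h. At 25.5 h it read 6.77, 6.37 and 5.76 in hypocotyl and 3.51, 2.34 and 2.22 in cotyledon (change 3.25 ± 0.62, adjusted p = 0.00017). AT1G33811 was lower in hypocotyl throughout, by -5.94 at 1.5 h and by less at 25.5 h, where it read 8.40, 7.75 and 8.93 in hypocotyl and 10.80, 10.95 and 10.85 in cotyledon (change 3.43 ± 0.47, adjusted p = 8.7e-07). In it the cotyledon arrays stayed between 10.39 and 10.95 at all 3 times, and the mean of the hypocotyl arrays was higher at each later harvest.

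**Figure D3:**
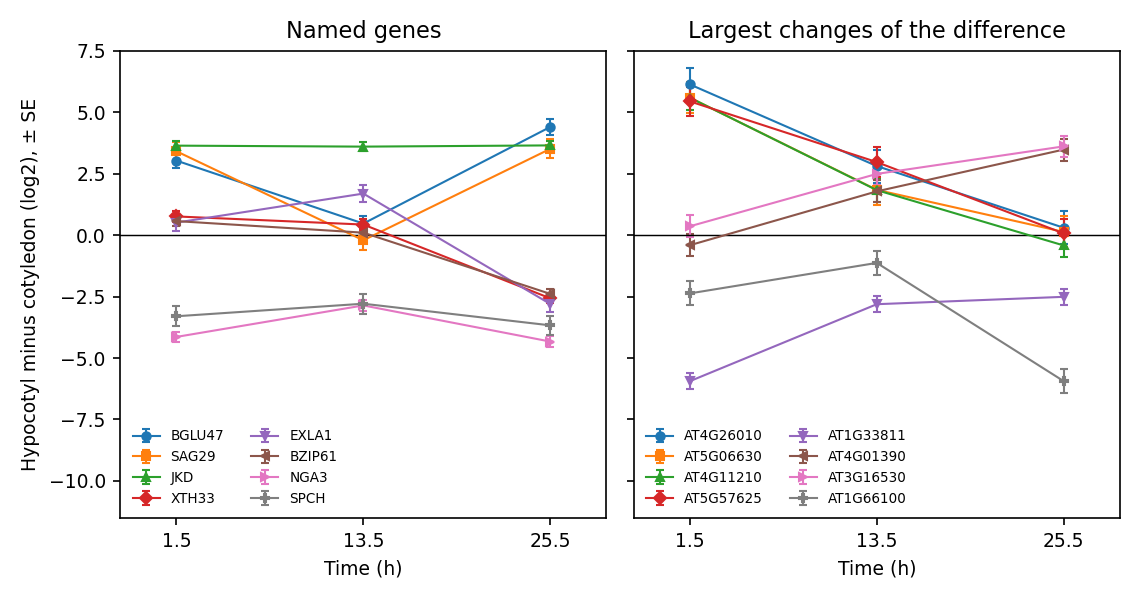
Organ difference (hypocotyl minus cotyledon, log2) of 8 named genes (left) and 8 loci (right) in control arrays at 1.5, 13.5 and 25.5 h; points are the fitted difference and bars its SE. SPCH and NGA3 stayed lower in hypocotyl, JKD stayed near 3.6, BGLU47 and SAG29 dipped at 13.5 h, and XTH33, EXLA1 and BZIP61 were lower in hypocotyl at 25.5 h alone of the 3 times.

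Against 13.5 h, 1347 features changed (8.04%), 711 up (4.25%) and 636 down (3.8%); centred on reference genes, 304 moved up and 1344 down. The cotyledon mean moved more than the hypocotyl mean in 854 of them. Without the arrays high in jacalin lectins 1136 changes were called, 760 of them among the 1347 and in the same direction. BGLU47 was near its cotyledon level in hypocotyl at 13.5 h, at 3.24, 4.30 and 3.1 against 2.74, 3.42 and 3.06 in cotyledon, and its difference changed by 3.93 ± 0.43 (adjusted p = 4.3e-08). SAG29 read 2.76, 3.03 and 2.45 in hypocotyl and 3.05, 2.82 and 3.02 in cotyledon at 13.5 h, a change of 3.73 ± 0.54 (adjusted p = 6.3e-06). At 1.5 h both had been higher in hypocotyl, by 3.03 and 3.41. PORB was bright and nearly alike in both organs in the dark, at 9.42, 9.53 and 9.88 in hypocotyl against 9.76, 9.59 and 10.11 in cotyledon, and its difference changed by -2.37 ± 0.40 (adjusted p = 8.7e-05). BGLU47, SAG29 and PORB thus passed the test of an organ difference at both daytime harvests, and not at the night harvest.

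A set of wall and regulatory genes was called lower in hypocotyl in the control arrays at 25.5 h and in none of the other 4 comparisons. XTH33 read 4.83, 4.33 and 4.62 in hypocotyl and 7.18, 6.95 and 7.37 in cotyledon, whereas its difference was 0.76 at 1.5 h, 0.43 at 13.5 h, 0.67 under ethylene and 0.01 under shade. The change was -3.34 ± 0.29 against 1.5 h (adjusted p = 5.4e-11) and -3.0 ± 0.29 against 13.5 h (adjusted p = 2.7e-09). EXLA1, at 3.93, 5.04 and 4.77 in hypocotyl and 7.0, 7.14 and 8.0 in cotyledon, had differences of 0.51, 1.69, 1.12 and 0.28 in the same order. BZIP61 had 0.57, 0.10, 0.85 and 0.34. EXLA2 had 1.53, -0.44, 3.05 and 0.32, so under ethylene it differed in the direction opposite to its -2.80 in control arrays. These genes were picked for the size of their difference in the control arrays, which the tests below share.

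The tests of control against treated organ differences called 2465 features against ethylene (14.7%), 1283 up (7.66%) and 1182 down (7.06%), and 940 against shade (5.61%), 480 up (2.87%) and 460 down (2.75%). XTH33 changed by -3.24 against ethylene and -2.58 against shade (adjusted p = 6.4e-11 and 7.2e-08). BZIP61 changed by -3.25 and -2.74 (adjusted p = 1.5e-10 and 5.7e-08), and EXLA1 by -3.92 and -3.08 (adjusted p = 2.7e-08 and 1.6e-05). ICL ran the other way: it was higher in hypocotyl by 2.45 in control arrays, against -1.06 under ethylene and 0.02 under shade, changes of 3.51 and 2.43 (adjusted p = 4.3e-06 and 0.00313).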

How the data were processed

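RNA of Arabidopsis seedling organs was measured on 54 arrays in 18 groups of 3. The authors deposited log2 values. The submitters' processing notes name Affymetrix Expression Console 1.4, RMA and Transcriptome Analysis Console 3.0, with no role or order. RMA corrects background, equalizes the arrays and summarizes probes. Values ran from 0.36 to 13.97, with medians of 4.33 to 4.43 in the 6 arrays compared, and none of the 54 arrays duplicated another. The genome build is not given in the sources used here, so no coordinates are printed. The number of arrays limits the precision.

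Groups came from the labels. Of 17504 features paired with a gene by the platform annotation, 16746 have exactly 1 gene, and these cover 16546 different genes; 758 have several and are not named. Symbols were updated through RefSeq (TAIR10.1), which matched 16601 of the 16746. Limma 3.58.1 in R 4.3.3 was fitted to all 54 arrays with 18 group means (36 residual degrees of freedom), so the groups share 1 spread per feature; p-values were Benjamini-Hochberg adjusted over the 17504 features, and a call is an adjusted p below 0.05. No feature was filtered out. Interaction contrasts tested changes of the organ difference. Those against ethylene and shade were added after values had been seen. On simulated data 35.8%, 83.6% and 100% of features changed by 0.5, 1 and 2 on the log2 scale were recovered in the organ comparison, among 17504 features, with 8 false calls.

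Named genes are the 12 largest called differences in each direction without overlap, up to 4 called members and the textbook markers of each list, the 6 largest changes per direction of each interaction with time, and up to 6 called transcription factors per direction. NGA2, NGA4, PHV, JAG, YUC2, GH3.1, GH3.3, GH3.9, IAA34, CHLM, EXPB3, EXPA9 and XTH32, further called members of the lists, were chosen after their values were seen. The members and the 31 lists were chosen with earlier results of these data known, and 19 further lists were added after values were seen. Lists are described by counts and medians, without a set test. Replicate numbers are shared by the organs in the labels, but the labels do not say that they mark an experiment. Deviations of same-numbered organ arrays correlated at 0.036, 0.018 and -0.025, so the numbers were not used to pair samples. Alternatives were the 6 arrays alone, all features, quantile normalization, centring on 12 reference genes, dropping the dimmest features (mean below 2.373), a replicate block, array weights, a 2-fold minimum and leaving out each array.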

Additional observations from a re-analysis of the deposited data

Results flagged for a closer look

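In 12 features the change of the organ difference between 1.5 h and 25.5 h was among the 6 largest in its direction, and limma's test of that change itself passed. AT3G23470 changed by -7.25 on the log2 scale, AT4G11210 by -6.01, AT4G26010 by -5.83, AT5G06630 by -5.45, AT3G09925 by -5.41 and AT5G57625 by -5.37, so that the hypocotyl stood lower against the cotyledon at 25.5 h than at 1.5 h. AT4G22490 changed by 4.02, AT4G01390 by 3.89, AT4G08780 by 3.69, AT1G33811 by 3.43, AT3G16530 by 3.25 and AT3G28270 by 3.21, so that it stood higher against the cotyledon than at 1.5 h. AT4G08780 read 4.45, 6.93 and 6.21 in hypocotyl and 2.43, 1.70 and 2.34 in cotyledon at 25.5 h, against 1.87, 1.94 and 2.57 in hypocotyl and 1.87, 2.08 and 2.37 in cotyledon at 1.5 h. AT4G22490 moved through the cotyledon, which read 3.71, 3.25 and 3.98 at 25.5 h and 8.13, 8.46 and 8.42 at 1.5 h, while the hypocotyl read 6.22, 6.64 and 5.68 at 25.5 h and 6.37, 7.2 and 6.98 at 1.5 h.

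Another 12 features changed between 13.5 h and 25.5 h by the same test. BGLU21 changed by -4.98, AT1G66100 by -4.81, AT1G52050 by -4.58, EXLA1 by -4.49, AT3G23470 by -4.41 and AT1G65490 by -4.24. AT2G14247 changed by 4.71, BGLU47 by 3.93, SAG29 by 3.73, AT5G13900 by 3.57, AT2G32650 by 3.37 and AT2G40200 by 3.19. AT1G65490 read 1.99, 2.32 and 2.68 in hypocotyl and 6.76, 7.02 and 6.67 in cotyledon at 25.5 h, against 1.71 to 1.79 in hypocotyl and 1.75 to 2.12 in cotyledon at 13.5 h. The change of BGLU21 was -2.09 (adjusted p = 0.441), of AT1G52050 -0.80 (0.662), of AT3G23470 -0.92 (0.81) and of AT5G13900 2.45 (0.237) once the hypocotyl arrays high in jacalin lectins were left out, so these 4 calls were lost, and the other 8 kept theirs. Leaving out 1 of the 12 arrays of this change at a time ended the call of AT1G52050 and of AT3G23470 in 9 cases each (ranges -6.47 to -3.43 and -6.15 to -3.29), of BGLU21 in 6 (-6.43 to -3.87), and of AT5G13900 in 2, hypocotyl replicate 2 at 25.5 h and replicate 1 at 13.5 h (2.82 to 4.18). BGLU21 read 9.09, 3.98 and 7.56 in hypocotyl at 13.5 h, high in the 2 arrays that stood apart, and 3.40, 3.42 and 2.99 at 25.5 h.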

How the results depend on the processing

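The 5082 organ differences at 25.5 h became 1757 when at least a 2-fold difference was also asked for, and lay between 4186 and 4723 when 1 array was left out. The 3092 changes against 1.5 h lay between 2530 and 2929 and fell to 1889 without the arrays high in jacalin lectins, an alternative chosen after seeing the data. The 1347 changes against 13.5 h lay between 1049 and 1415. No other alternative moved the total of a comparison by more than 1.5 times. Among gene lists, transcription factors higher in hypocotyl numbered 5 in place of 9 with only the 6 arrays and when centred on reference genes, lower plastid-encoded genes 13 in place of 23 with only the 6 arrays, lower photosystem genes 1 in place of 3 with only the 6 arrays, and lower defence genes 5 in place of 3 when centred. The replicate block gave 5182, 3242, 1486, 5870 and 4629 calls for the control difference, both changes with time, and the ethylene and shade differences, and changed no call among the genes named at 25.5 h; 1 of 3 hypocotyl arrays correlated best with the cotyledon array of its own number. Centred on reference genes, the share higher among calls was 37.0% of 5579 in place of 52.5% at 25.5 h, 42.4% of 2791 in place of 31.4% for the change from 1.5 h, and 18.4% of 1648 in place of 52.8% for the change from 13.5 h, with a median of all features of -0.225 in the last. Before centring, 2 of the 12 reference genes were themselves called up for the change from 13.5 h, and none down. Of 181 genes followed at 25.5 h, 26 lost their call under at least 1 of the alternatives other than the 2-fold minimum, and none reversed. The 2-fold minimum, not counted there, also ended the call of every gene that differed by less than 1 on the log2 scale. With 3 arrays per organ, small differences can be missed: in simulation 35.8% of the 67 features changed by 0.5 on the log2 scale were called. Far fewer features were changed there than were called in the data, so that share need not hold for the data.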

Other observations

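Methionine sulfoxide reductases of the B type, which repair oxidized methionine, differed within the family. MSRB6 read 6.48, 6.38 and 6.28 in hypocotyl and 8.88, 8.58 and 8.45 in cotyledon (-2.26 ± 0.20, limma adjusted p = 6e-12). MSRB4 read 5.04, 5.12 and 4.76 in hypocotyl and 3.98, 3.42 and 3.71 in cotyledon (1.27 ± 0.35, adjusted p = 0.00409). Of 6 measured, 3 were higher in hypocotyl and 2 lower, in a list put together after values had been seen. Of 5 measured genes of the abscisic acid list, 2 were higher and 1 lower. COR47 and KIN2, both dehydration-induced, were higher in hypocotyl by 1.58 ± 0.27 and 1.23 ± 0.31, and COR15A, which protects the chloroplast, was lower by -1.23 ± 0.25. COR15A read 2.24, 2.69 and 2.47 in hypocotyl, against 3.84, 4.44 and 2.83 in cotyledon. Of 22 defence genes 1 was called higher and 3 lower, beside 15.9% and 14.4% of all features. Centred on reference genes, 5 were lower. Among the 22 genes the defensin-like LCR68 was higher by 1.33 ± 0.21, and WRKY22, a partner of WRKY29 in immune signalling, was lower by -1.23 ± 0.24. UGT74B1, a glucosyltransferase of glucosinolate synthesis, was higher by 1.49 ± 0.20. BGLU33 was lower by -3.16 ± 0.34, at 3.97, 4.57 and 4.93 in hypocotyl against 8.12, 8.10 and 6.73 in cotyledon.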
